A study of Mus musculus with 10 samples.

Results

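Exoc4 is a long gene on mouse chromosome 6 (mm10, 33249090 to 33973979, 725 kb), on the same chromosome as the DNA break from which translocations were read. It received 118 of the 68433 junctions in the 10 libraries. A junction belonged to the gene when it lay within the gene or the 2 kb on either side (33247090 to 33975979). The gene was chosen by its number of junctions in the etoposide libraries, so those numbers are given as a description and are not tested. On chromosome 6, Foxp1 had 121 junctions over both etoposide libraries, Exoc4 86 and Iqsec1 59. Genes of rank 10 and 11, Vgll4 and Snd1, had 38 and 37.

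Exoc4 encodes a subunit of the exocyst, the complex that tethers secretory vesicles to the plasma membrane before they fuse with it. Topoisomerase II relieves DNA supercoils and tangles by cutting both strands and staying bound to the cut ends. Etoposide traps it in that state, and the breaks that result can be joined to other broken ends. In cells without the DNA ligase Lig4, classical end joining is not available, and ends are joined by alternative pathways that often use a few bases shared by both ends.

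The cells were Abelson-transformed pre-B cells of C57BL/6 mice with the genotype LIG4-/-, which all groups share. The labels do not say whether 1 clone or several were used, nor that replicates were separate cultures. All were arrested in G1 with imatinib, and a zinc-finger nuclease induced with doxycycline cut the bait site. The groups were etoposide (50 µM for 2.5 h, then 12 h of recovery, n = 2), untreated (n = 2), IFN with etoposide, IFN, DRB with etoposide, DRB, DRB with AsiSI and AsiSI, with 1 library for each of the last 6. DRB inhibits transcription elongation and was given 2 h before. IFN is given in the labels only as an abbreviation. AsiSI is a restriction enzyme, and its libraries also received 1 µM tamoxifen, 20 h after doxycycline. A group of 1 library offers no replicate check, so a test between such groups sets library against library and not condition against condition. The assay reads DNA junctions and measures no expression, so neither the cell type nor transcription of Exoc4 could be checked. Intervals are exact 95% intervals and cover counting error only.

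Each read begins in the bait and ends in the prey, the sequence joined to it. In the first 6 kb after the annotated start of Exoc4 lay 11 junctions, all from libraries that received etoposide. Their reads are shown because the share of junctions near the start is described in most detail. Each line gives the library, the distance from the gene start and the prey strand. Then follow 20 bases of bait, the bases in both the bait and the prey alignment in capitals, and 20 bases of prey, from 5′ to 3′. All come from chromosome 6.
etoposide replicate 1, 512 bp, plus: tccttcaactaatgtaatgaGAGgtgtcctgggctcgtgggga
IFN with etoposide, 514 bp, plus: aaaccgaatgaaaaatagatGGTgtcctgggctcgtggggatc
etoposide replicate 1, 600 bp, minus: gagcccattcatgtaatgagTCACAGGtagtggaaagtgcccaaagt
etoposide replicate 2, 2215 bp, plus: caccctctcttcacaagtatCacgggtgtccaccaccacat
etoposide replicate 2, 2659 bp, minus: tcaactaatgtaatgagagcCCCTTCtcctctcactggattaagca
etoposide replicate 2, 4686 bp, minus: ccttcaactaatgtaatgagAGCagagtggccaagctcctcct
etoposide replicate 1, 4987 bp, minus: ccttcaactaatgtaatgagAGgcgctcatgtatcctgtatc
etoposide replicate 1, 5126 bp, minus: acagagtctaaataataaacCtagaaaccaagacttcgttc
etoposide replicate 2, 5183 bp, minus: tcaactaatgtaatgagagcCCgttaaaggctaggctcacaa
etoposide replicate 1, 5319 bp, minus: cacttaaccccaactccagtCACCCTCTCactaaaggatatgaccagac
etoposide replicate 1, 5398 bp, plus: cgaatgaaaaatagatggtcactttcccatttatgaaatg

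The first and second of these reads come from different libraries and enter the gene 2 bp apart, but their bait ends differ, at 75 and 11 bases before the bait break. The 2 reads thus differ in their bait part. Shared bases are here those in both alignments, which can cross a mismatch. They number from 0 to 9, and the last read shows a direct join with none. In the read at 2659 bp the capitals hold a base that differs from the bait as seen in the read at 600 bp. Where bases are shared they could belong to either end, so a position is exact only to within that number of bases.

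Exoc4 junctions were found in all 4 libraries that received etoposide and in 2 of the 6 that did not. There were 64 in etoposide replicate 1 against 0 in untreated replicate 1, and 22 in etoposide replicate 2 against 3 in untreated replicate 2. IFN with etoposide held 27 against 0 with IFN, DRB with etoposide held 1 against 0 with DRB, and DRB with AsiSI held 1 against 0 with AsiSI. Within each etoposide pair the library with etoposide had the higher count, although the DRB pair differed by a single junction.

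The libraries differed in depth, so counts were set against junctions near the bait, those within 1 Mb of the break. Exoc4 had 53.4 junctions per 1000 near the bait (41.1 to 68.2) in etoposide replicate 1. Untreated replicate 1 had 0, which allows up to 2.67. Etoposide replicate 2 had 5.48 (3.44 to 8.30) and untreated replicate 2 had 0.569 (0.117 to 1.66). In replicate 1 the etoposide rate was 20 times the limit of the untreated library, a value that leaves out the counting error of the etoposide count. In replicate 2 the etoposide rate was 9.64-fold higher than the untreated one (2.89 to 50.3). Prey in general also numbered more per near-bait junction with etoposide, as given for the second scale below. The group means were 29.5 ± 33.9 with etoposide and 0.284 ± 0.402 untreated (SD, n = 2 each). With etoposide the SD exceeded the mean, and the difference of 29.2 between the group means was 5.2 without etoposide replicate 1 and 53.1 without etoposide replicate 2. Etoposide and untreated replicate 1 shared a sequencing run of their own. Etoposide replicate 2 and untreated replicate 2 came from different runs, so in replicate 2 run and treatment cannot be told apart. In etoposide replicate 1 the prey alignments in Exoc4 had a median length of 270 bp, against 55.5 bp in etoposide replicate 2 and 62 bp in IFN with etoposide. The part of the run in the rate was not tested.

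The second scale was per 1000 prey, the junctions more than 1 Mb from the bait, outside antigen receptor loci. Such prey numbered 10309 beside 1198 junctions near the bait in etoposide replicate 1, and 676 beside 1124 in untreated replicate 1. In replicate 2 the numbers were 3296 beside 4013 with etoposide and 370 beside 5273 untreated. The rise with etoposide per near-bait junction was thus not particular to Exoc4. Exoc4 took 6.21 per 1000 of these prey (4.78 to 7.93) in etoposide replicate 1, where untreated replicate 1 had 0, with a limit of 4.44. It took 6.67 (4.18 to 10.1) in etoposide replicate 2 and 8.11 (1.67 to 23.7) in untreated replicate 2, a ratio of 0.823 (0.247 to 4.30). The means were 6.44 ± 0.33 with etoposide and 4.05 ± 5.73 untreated (SD, n = 2 each). On this scale the etoposide replicates differed by less than their intervals, and in replicate 2 the value with etoposide was below the untreated one. The untreated values rest on 3 junctions among 370 prey in replicate 2 and 0 among 676 in replicate 1.

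**Figure D1:**
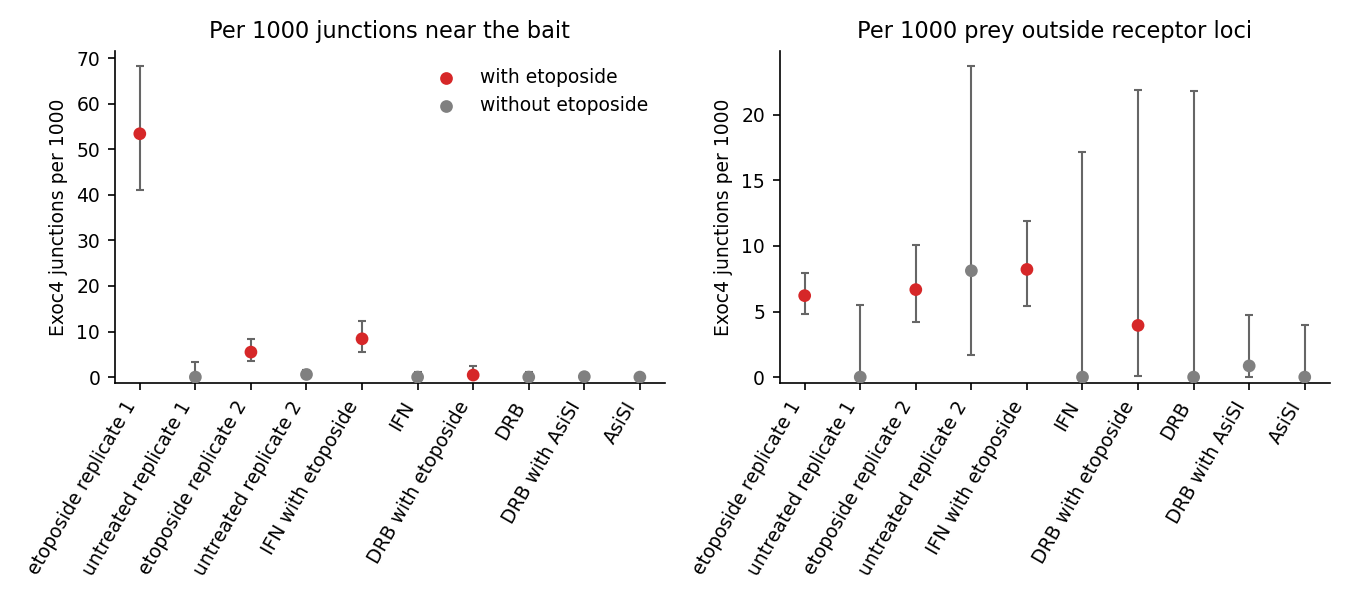
Exoc4 junctions per 1000 junctions near the bait (left) and per 1000 prey outside antigen receptor loci (right) in each library. Points are single libraries, red with and grey without etoposide, and bars are exact 95% Poisson intervals of the Exoc4 count. Near the bait, etoposide replicate 1 stands at 53.4, while per prey the 3 libraries with over 20 Exoc4 junctions lie between 6.21 and 8.21.

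The gene was ranked by its counts in the etoposide libraries, not by those with IFN or DRB, but results of all libraries were known when it was chosen, so the tests below are not independent evidence. The IFN and DRB libraries were set against each other in 3 comparisons by Fisher's exact test (two-sided, Exoc4 junctions against junctions near the bait, Benjamini-Hochberg adjusted over the 3). IFN with etoposide had 8.40 Exoc4 junctions per 1000 near the bait (5.53 to 12.2). IFN had 0, with a limit of 0.826, and the rate of IFN with etoposide was 10.2 times that limit. The comparison of IFN with etoposide and IFN passed (Fisher's exact test, adjusted p = 4.41e-09). These libraries came from different sequencing runs, so run and treatment cannot be told apart. Prey in general also numbered more per near-bait junction in IFN with etoposide than in IFN, as given below. How many other genes would pass this comparison was not computed, so nothing particular to Exoc4 is read from it. DRB with etoposide had 0.443 (0.0112 to 2.47), so that IFN with etoposide, sequenced in the same run, lay 18.9-fold above it (3.12 to 775; Fisher's exact test, adjusted p = 1.32e-05). DRB with etoposide against DRB did not pass the test, with 1 junction among 2255 near the bait against 0 among 3140 (Fisher's exact test, adjusted p = 0.418). Both of these libraries were also of different runs. The labels name etoposide replicate 1, at 53.4 per 1000, as the control of DRB with etoposide, but etoposide replicate 2, at 5.48, was the one sequenced in its run. With repeated positions counted once, IFN with etoposide exceeded DRB with etoposide by 16.9 per 1000 and IFN by 17.8, against 7.95 and 8.40 with all junctions, and the same comparisons passed.

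Per prey outside receptor loci none of the 3 comparisons passed (Fisher's exact test, adjusted p = 1 for each). Such prey as a whole numbered 3288 beside 3216 junctions near the bait in IFN with etoposide, and 215 beside 3630 in IFN. IFN with etoposide had 8.21 Exoc4 junctions per 1000 such prey (5.41 to 11.9). DRB with etoposide had 3.94 (0.0997 to 21.9), from 1 junction among 254. IFN had 0 among 215 prey, which allows up to 14.0, so a share as high as that with etoposide is not excluded. DRB had 0 among 169, with a limit of 17.8. Of 119 protein-coding genes with at least 10 junctions over both etoposide libraries, 108 (90.8%) had a rate near the bait at least 2-fold lower with DRB and etoposide than with IFN and etoposide. For 89 of the 108 the DRB and etoposide library held 0 junctions, and with such a 0 taken at its limit of 3 counts 10 of these 89 were still at least 2-fold lower. The other 19, Exoc4 with its single junction among them, were above 0 in both libraries. Most of the 108 thus rest on counts too low to place a fold, and nothing particular to Exoc4 is read from its place among them.

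With AsiSI, Exoc4 was rarely joined, but the other libraries without etoposide also held only 0 to 3 of its junctions. DRB with AsiSI had 0.0954 junctions per 1000 near the bait (0.00241 to 0.531) and AsiSI had 0, with a limit of 0.404. Per 1000 prey outside receptor loci DRB with AsiSI had 0.853 (0.0216 to 4.75) and AsiSI had 0, with a limit of 3.22. The single junction lay 360037 bp from the gene start, on the minus strand, and its read held 25 bases between bait and prey that belong to neither alignment, shown in capitals.
DRB with AsiSI: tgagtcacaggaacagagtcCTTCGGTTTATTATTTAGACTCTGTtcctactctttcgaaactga
The reverse complement of these bases matched the bait sequence over a run of 24 bases (chromosome 6, 41554924 to 41554947), whereas on the same strand the longest match was 5 bases. The inserted bases thus read like a stretch of bait in the opposite direction.

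Exoc4 held more junctions per length than its neighbours. The 4 libraries with etoposide held 114 junctions in the window of the gene, or 15.6 per 100 kb. The nearest protein-coding gene towards the centromere, Chchd3, which encodes a protein of the mitochondrial inner membrane (32792207 to 33060273), held 23, or 8.58 per 100 kb. The 186816 bp between both genes held 5, or 2.68 per 100 kb. Beyond the far end of Exoc4, the 53265 bp up to Lrguk held 0, and Lrguk (34029245 to 34134034) held 4, or 3.82 per 100 kb. Both 2-kb margins held 0 junctions, so the gene body alone gives the same 118. Since the gene was chosen for its count, the difference from its neighbours is a description. The last junction inside lay at 33973291, 2.69 kb before the window ends, and the next one outside 49.9 kb past it, in the DRB library. On the other side the first junction inside lay 2.51 kb into the window and the nearest outside 2.41 kb before it. Among the 38 genes of chromosome 6 with at least 20 etoposide junctions, Exoc4 was the longest and second by count. It was 31st by density, with 11.8 junctions per 100 kb over both etoposide libraries against a median of 27.0. A short gene reaches 20 junctions only at a high density, so this filter itself favours a low density rank for a long gene.

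Along the gene, junctions were found from 512 bp after the annotated start to 724 kb, with more of them towards the start. The RefSeq promoter table places Exoc4 on the plus strand with its first transcribed base at 33249128, and the nearest junction lay 474 bp downstream of it. In the first 20% of the window lay 26 of 64 junctions in etoposide replicate 1 (40.6%, 28.5 to 53.6), 10 of 22 in etoposide replicate 2 (45.5%, 24.4 to 67.8) and 8 of 27 in IFN with etoposide (29.6%, 13.8 to 50.2). The intervals of both etoposide libraries lie above 20%, and that of IFN with etoposide includes it. Over the libraries with etoposide, 5 equal parts of 146 kb held 44, 19, 14, 19 and 18 junctions from start to end. The median distance from the start was 256 kb. Of the 3 untreated junctions, at 24.4, 45.1 and 676 kb, 2 lay in the first 20%. The single junctions of DRB with etoposide and DRB with AsiSI lay in the middle part, at 354 and 360 kb.

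**Figure D2:**
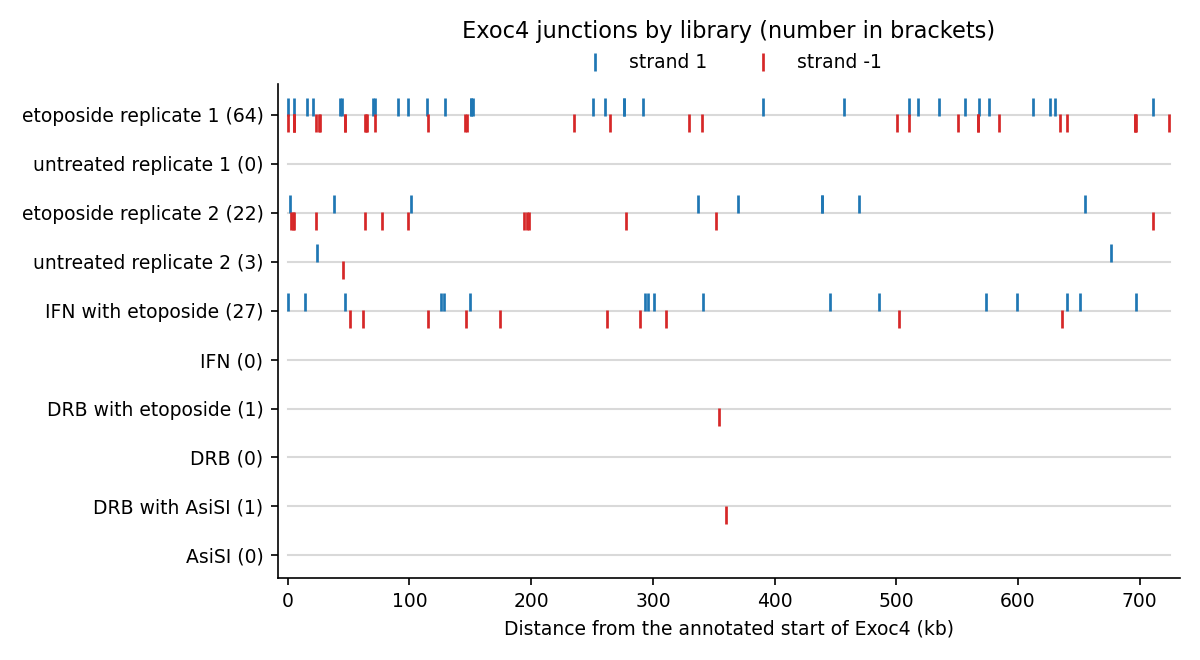
Position of each Exoc4 junction, in kb from the annotated gene start, in the 10 libraries, with the prey strand shown by colour and by the side of the line. The ticks of etoposide replicate 1, etoposide replicate 2 and IFN with etoposide reach along the gene, with 44 of 114 in its first 20%, while 4 of the 6 libraries without etoposide are empty.

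**Figure D3:**
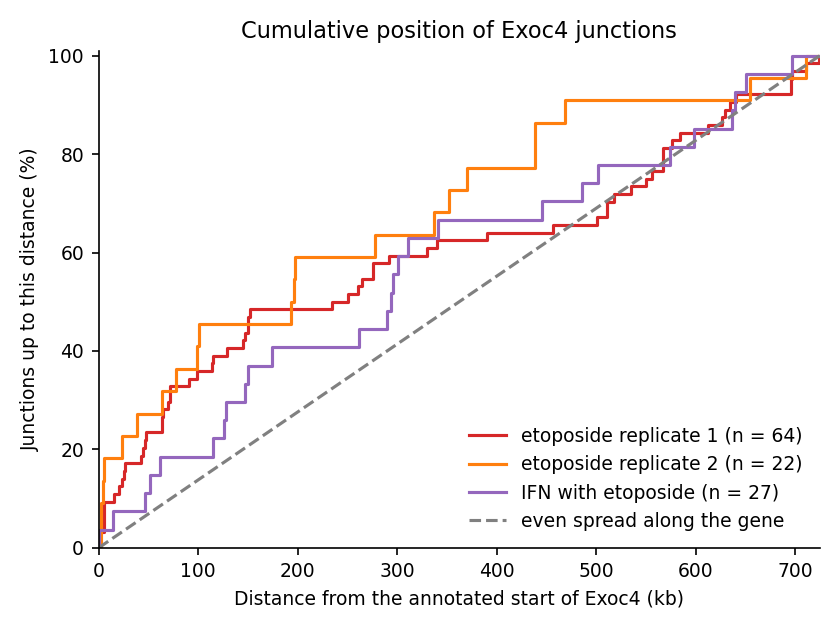
Cumulative share of Exoc4 junctions with distance from the gene start in the 3 libraries with over 20 of them, against an even spread (dashed). In the first 10% of the window lie 29.7% of junctions in etoposide replicate 1, 31.8% in etoposide replicate 2 and 18.5% in IFN with etoposide.

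The stretch at the start, whose reads are shown above, held 6 junctions of etoposide replicate 1, 4 of etoposide replicate 2, 1 of IFN with etoposide and 0 of the other libraries. The first 6 kb make up 0.823% of the window and held 9.65% of the junctions of the libraries with etoposide (4.92 to 16.6). The value was 9.38% (3.52 to 19.3) in etoposide replicate 1, 18.2% (5.19 to 40.3) in etoposide replicate 2 and 3.70% (0.0937 to 19.0) in IFN with etoposide. This length was set after the positions were seen, so the share is a description. Within it 6 junctions, 4 of etoposide replicate 1 and 2 of etoposide replicate 2, lay between 4.5 and 5.5 kb. With this stretch left out, 32.0% of the remaining junctions lay in the first 20% of the gene.

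Long genes of chromosome 6 differed widely in this share. Among the 27 protein-coding genes of at least 100 kb with at least 20 junctions in the libraries with etoposide, the share in the first 20%, along each gene's own direction, had a median of 24.2% and ran from 0% to 47.6%, above 20% in 14 genes. Exoc4, at 38.6% (29.6 to 48.2), ranked 4, below Mkln1, Nup210 and Chchd3. In the first 6 kb its junctions were 11.7 times the share of length, second to Cntn4, which encodes a neural adhesion protein and had 6 of 21 junctions there. The median of the 27 genes was 2.27 times, and 8 genes had 0 junctions there. A fixed 6 kb is a smaller share of a longer gene, so this ratio favours long genes, and Cntn4 and Exoc4 were the longest. The 6 kb were also set from the positions in Exoc4. As a plain share of junctions, Exoc4 had 9.65% there, against a median of 4.62%. Cntn4 (28.6%), Nup210 (26.1%), Chchd3 (17.4%) and Braf (11.3%) were among the genes above that share. Genes ranked above Exoc4 in the first 20% or by the ratio held 21 to 23 junctions each, against 114 in Exoc4.

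**Figure D4:**
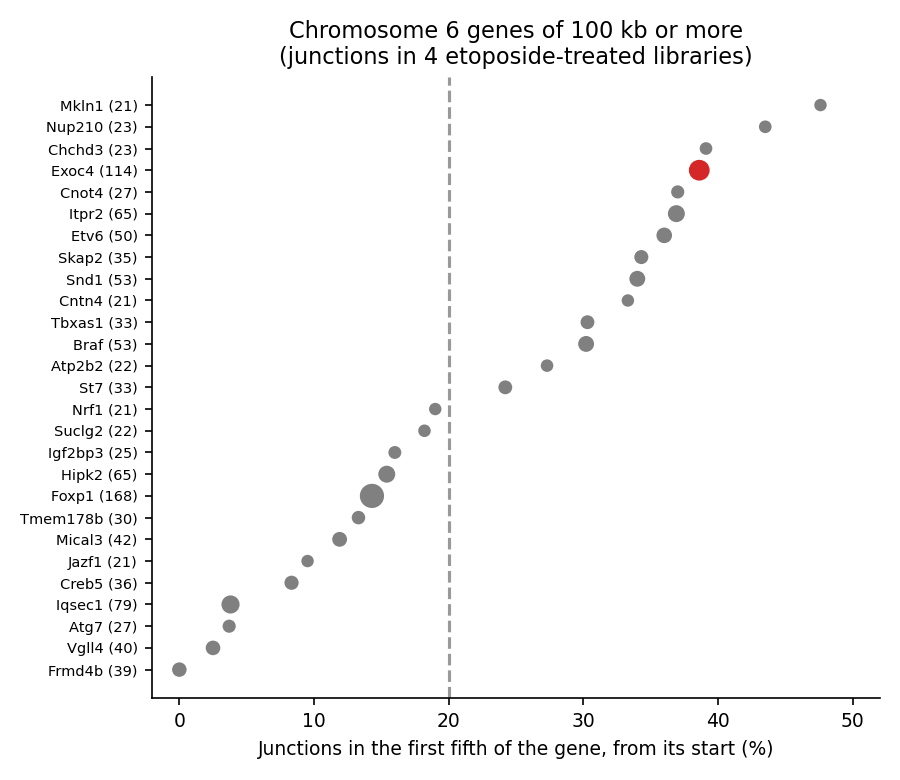
Share of junctions in the first 20% of the gene, counted from its start, for 27 genes of chromosome 6 in the 4 libraries with etoposide. Each point is a gene, its size grows with the number of junctions (in brackets), the dashed line marks 20%, and Exoc4 (red, 114 junctions) lies at 38.6%.

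Over the whole gene, its first 6 kb included, junctions in the libraries with etoposide were spaced at a median of 2.63 kb. The widest gap was 48.4 kb, between 390 and 439 kb from the start. There were 20 pairs of neighbouring junctions less than 200 bp apart, 12 of them from different libraries. Such pairs lay at 23.0 kb (44 bp apart, etoposide replicates 2 and 1), at 63.2 kb (80 bp apart, the same libraries) and at 711 kb (18 bp apart, the same libraries). Another lay at 697 kb, 25 bp apart, in etoposide replicate 1 and IFN with etoposide. Only 1 position recurred, 33525077 in etoposide replicate 1, where 2 reads were listed with bait ends 3 bases apart.
first read: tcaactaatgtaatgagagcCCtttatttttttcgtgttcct
second read: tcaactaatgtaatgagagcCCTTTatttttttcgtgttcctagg
Over the 42 bases they have in common the reads do not differ in any base, and only the assignment of the shared bases does. The capitals of the second read hold a base that differs from the bait as seen in the read at 600 bp above. Counting them once left 63 junctions in this library.

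Of the annotated genes inside Exoc4, Gm38785 and Gm13854 held junctions. The non-coding RNA gene Gm38785 (33442862 to 33474839) contained 3 junctions, all from etoposide replicate 2 and all on the minus strand. They lay 9, 2843 and 4053 bp after its lower coordinate. The strand of Gm38785 was not looked up, so this end can be its start or its far end. The pseudogene Gm13854 (33375910 to 33377420) held 1, from IFN with etoposide. The position of exons was not analysed here.

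The strand of the prey gives the direction of the join. All bait reads ran towards higher coordinates, and Exoc4 lies 7.58 to 8.31 Mb from the bait towards the centromere. With prey on the plus strand the join would, on 1 chromosome copy, close the segment between gene and bait into a circle, and with prey on the minus strand it would invert that segment. Plus-strand junctions numbered 32 of 64 in etoposide replicate 1 (50.0%, 37.2 to 62.8), 9 of 22 in etoposide replicate 2 (40.9%, 20.7 to 63.6) and 17 of 27 in IFN with etoposide (63.0%, 42.4 to 80.6). In the other prey on the same side of the bait the shares were 52.3%, 51.6% and 51.8%. Both directions were used in each library, and the differences from the other prey did not pass the test in any of the 3 libraries (two-sided Fisher's exact test, p adjusted over the genes tested = 0.934, 0.574 and 0.447). This test called 0 of 28 genes (0%) in etoposide replicate 1, with 4 at an unadjusted p under 0.05, 1 of 6 (16.7%) in etoposide replicate 2 and 0 of 7 (0%) in IFN with etoposide, with 1 at an unadjusted p under 0.05. The gene called was the kinase gene Braf. In the first 6 kb of Exoc4, 7 of 11 junctions were on the minus strand, and between 435 and 581 kb 6 of 19 were. The plus-strand shares there were 36.4% (10.9 to 69.2) and 68.4% (43.4 to 87.4), and both intervals include 50.0%.

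Overlap between bait and prey was close in Exoc4 and in the other prey of chromosome 6 outside receptor loci. Shared bases are counted as read bases in both alignments, whether or not each of them matches. In the libraries with etoposide the median was 3 shared bases in Exoc4 and 3 in other chromosome 6 prey. Of the 114 Exoc4 junctions, 83 shared at least 2 bases, 18 shared 1, 11 were direct and 2 carried inserted bases. At least 2 bases were shared by 47 of 64 junctions in etoposide replicate 1 (73.4%, 60.9 to 83.7), against 77.3% of other chromosome 6 prey. The shares were 72.7% (49.8 to 89.3) against 73.0% in etoposide replicate 2 and 74.1% (53.7 to 88.9) against 76.4% in IFN with etoposide. None passed (two-sided Fisher's exact test, p adjusted over the genes tested = 1, 1 and 0.988). The test called 0 of 81 genes (0%, with 6 at an unadjusted p under 0.05), 0 of 11 (0%, with 0) and 1 of 14 (7.14%, again Braf) in these libraries. All 3 untreated junctions shared at least 2 bases, and the junction of DRB with etoposide was direct. The longest overlap was 10 bases, in etoposide replicate 1 at 550351 bp from the start, minus strand, and is shown in capitals.
etoposide replicate 1: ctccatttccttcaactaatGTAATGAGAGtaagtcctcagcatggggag

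**Figure D5:**
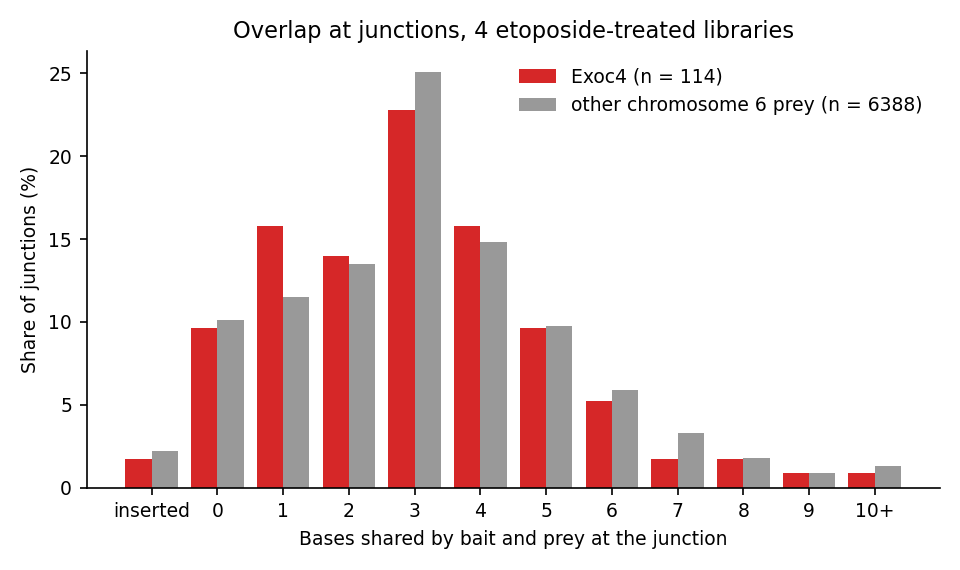
Number of bases in both the bait and the prey alignment at junctions in Exoc4 (red, n = 114) and in other chromosome 6 prey outside receptor loci (grey, n = 6388). Bars are shares of junctions pooled over the 4 libraries with etoposide. The label "inserted" stands for reads with extra bases between bait and prey. Both peak at 3 bases, with 22.8% of Exoc4 junctions and 25.1% of the others.

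On the bait side, Exoc4 junctions had lost a median of 41.5 bases before the break, and other chromosome 6 prey 51. The bait ends used most by Exoc4 junctions lay 10 bases before the break (11 of 114, 9.65%, 4.92 to 16.6, against 4.93% of other chromosome 6 prey), 72 bases before it (9 of 114, 7.89%, 3.67 to 14.5, against 10.5%) and 1 base before it (9 of 114, 7.89%, against 4.4%). The median loss was 34.5 bases in etoposide replicate 1, 65.5 in etoposide replicate 2 and 41 in IFN with etoposide, against 46, 54 and 64 in the other prey of the same libraries. These differences were not tested.

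Among prey of chromosome 6 on the centromeric side of the bait, Exoc4 took 5.83% (4.52 to 7.39) in etoposide replicate 1, 6.13% (3.88 to 9.13) in etoposide replicate 2 and 7.07% (4.71 to 10.1) in IFN with etoposide. It took 4.17% (0.105 to 21.1) in DRB with etoposide, where 24 such prey were found. In untreated replicate 2 it took 3 of 20 (15.0%, 3.21 to 37.9) and in untreated replicate 1 0 of 10. The values of the 3 libraries with over 20 Exoc4 junctions lie within each other's intervals, while 7 to 46 prey on this side in the libraries without etoposide leave wide ones.

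The genes whose junctions were distributed over the 10 libraries most like those of Exoc4 were Chchd3, Itpr2 and Frmd4b. Likeness was 1 minus the summed absolute differences in share divided by 2, over the 10 libraries. It was taken for 69 other protein-coding genes with at least 20 junctions, with a median of 0.826. Chchd3, the neighbour, was found 13 times in etoposide replicate 1, 5 in etoposide replicate 2, 5 in IFN with etoposide and 0 elsewhere (likeness 0.946). Itpr2, which encodes a calcium channel of the endoplasmic reticulum, had 39, 12 and 14 in the same libraries and 1 in DRB with AsiSI (0.945). Frmd4b had 21, 8 and 8, and 2 in DRB with etoposide (0.939). None of the 3 had a junction in an untreated library, where Exoc4 had 3, all in untreated replicate 2. With totals of 23, 66 and 39 junctions against 118 in Exoc4, no difference is read from this.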

How the data were processed

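Genomic DNA of 10 libraries was analysed by linear-amplification-mediated HTGTS on the MiSeq, with the standard pipeline of that assay, per the labels' protocols. The submitters' processing notes name bedtools, GRCm38.p2 and mm10. The deposited files list 1 junction per row, with position, strand, read and alignments, and hold no normalization. Libraries held 2044 to 13425 junctions. Read names place etoposide and untreated replicate 1 in 1 sequencing run, untreated replicate 2, IFN and DRB in another, etoposide replicate 2, IFN with etoposide and DRB with etoposide in another, and both AsiSI libraries in the last.

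All junctions were used; 83 off chromosomes 1 to 19, X and Y were not counted as prey. Genes were placed by RefSeq on GRCm38.p6, which shares the coordinates of mm10 on the main chromosomes. A run of 10 or more annotated receptor segments, spaced by no more than 1 Mb, counted as an antigen receptor locus. Overlap is the number of read bases in both the bait and the prey alignment. An alignment can cross a mismatch, so an overlap can exceed the bases that match both. Intervals are exact Poisson (rates, taking the denominator as free of error, except in ratios, where only Exoc4 counts vary) and Clopper-Pearson (shares); limits for 0 are 3 counts. PCR reads are not independent molecules. Fisher's exact test measures counting error alone, not the spread between libraries. Strand was tested for protein-coding genes of chromosome 6 on the same side of the bait as Exoc4, and overlap for those of the whole chromosome outside receptor loci, with at least 10 junctions in a library, with Benjamini-Hochberg adjustment (threshold 0.05), after a check on simulated data. The simulated differences were far larger than those of Exoc4, so the check does not measure the power to find differences as small as these. The labels name each untreated replicate as the control of the etoposide replicate of the same number, which is the pairing used. Named genes were Exoc4, its neighbours and the 3 most like it; Foxp1, Iqsec1, Vgll4, Snd1, Braf, Mkln1, Nup210, Cntn4, Gm38785 and Gm13854 were named after their values were seen. The gene and the lists were chosen with earlier results of these data known. Python 3.11.15, scipy 1.17.1 and statsmodels 0.14.6 were used.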

Additional observations from a re-analysis of the deposited data

How the results depend on the processing

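Of 31 alternatives, 27 were labelled as leaving the result as it was, but this count is no measure of stability. The label also covers a rate difference that fell from 29.2 to 5.2 and overlap differences that changed sign. The replicate block and the removal of the 2-kb margins, which were empty, could not change the values. The difference in rate between etoposide and untreated, 29.2 per 1000 near the bait, was also 29.2 with the replicate block and with the 2-kb margins left out, 41.5 with repeated positions counted once and 34.1 with near-bait junctions taken within 100 kb. Leaving out 1 library at a time gave 5.2 to 53.1, the extremes being those without etoposide replicates 1 and 2. Per 1000 prey outside receptor loci it was 2.39, and the cause was not tested. On that scale IFN with etoposide exceeded DRB with etoposide by 4.27 and IFN by 8.21, and neither passed (Fisher's exact test, adjusted p = 1), with 254 such prey in DRB with etoposide and 215 in IFN. Without repeated positions these differences were 16.9 and 17.8 per 1000 near the bait, against 7.95 and 8.40. All 27 Exoc4 junctions of IFN with etoposide lay at different positions, so the change came from the smaller number of junctions near the bait. The share in the first 20% of the gene, 38.6%, became 27.2% for the first 10%, a smaller stretch. It was 32.0% without the first 6 kb and 36.0% without etoposide replicate 1, both chosen after the positions were seen. Strand and overlap passed the threshold under no alternative run. The overlap difference from other prey turned from -3.90, -0.237 and -2.36 percentage points to 2.58, 0.289 and 0.0354 when 1 shared base sufficed, none of them past the test. Exoc4 held 3 junctions or fewer in 7 libraries, which limits what can be said of them.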
